A study of Mus musculus with 16 samples.

Results

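Fibromodulin (Fmod) and 9 related genes of the small leucine-rich proteoglycans (SLRPs), namely decorin (Dcn), biglycan (Bgn), lumican (Lum), osteoglycin (Ogn), Prelp, osteomodulin (Omd), asporin (Aspn), Ecm2 and podocan (Podn), were followed in mouse left ventricles. Fmod was picked because it stood among the most changed genes in 3 comparisons of these libraries (P635L Ctr against WT Ctr, and P635L Tnpo3 against each of P635L Ctr and WT Ctr, as named below), and the other 9 were added as its relatives. The values of Fmod in those comparisons are therefore a description without a test. All 10 genes were found among the 56953 in the count table, and all 10 passed the filter on low counts that 18662 genes passed. RNA was sequenced from 16 mice of the Bl6J background, males and females, with 4 mice in each group. They carried either the normal RBM20 gene (wild type, WT) or the P635L mutation of it on both alleles. RBM20 is a splicing factor of heart muscle. Each received 1e12 viral genomes of AAV9, a virus that reaches the heart, by tail vein at 4 weeks of age, and the left ventricle was taken 12 weeks later, at 16 weeks. The Tnpo3 virus carried the cDNA of Tnpo3, a nuclear import receptor, under a promoter not given in the sources used here. The Ctr virus carried pCAG-iCre-T2A-eGFP, by its name a construct for Cre recombinase and green fluorescent protein under the broadly active CAG promoter. Expression of either protein in the control hearts was not measured here. Groups are named by genotype and virus, as in WT Ctr or P635L Tnpo3, and no group without virus was analysed here.

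SLRPs are secreted proteins with a core of leucine-rich repeats, and most of them carry chondroitin, dermatan or keratan sulfate chains. Decorin, biglycan, fibromodulin, lumican and asporin bind collagen and shape the thickness and spacing of its fibrils. In the heart, fibroblasts are the main source of decorin, biglycan and lumican, and members of the family also bind transforming growth factor beta or signal through Toll-like receptors.

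The genes lie in groups on the genome (GRCm39, positions from the count table). Ecm2, Aspn, Omd and Ogn stand in this order on the plus strand of chromosome 13, from 49658286 to 49777977, with gaps of 11.7, 14.9 and 15.2 kb and no listed gene between them. All 4 lie inside the span of Cenpp on the other strand, which shares 7 exon bases with Aspn and none with the other three, and which had only 39 to 136 counts in any library. Dcn (97315471 to 97354005) and Lum (97400990 to 97408565) are neighbours on chromosome 10, 47.0 kb apart. Fmod (chromosome 1, 133964992 to 133976015) is 115.8 kb from Prelp, with 3 genes between. Bgn is on the X chromosome (72527208 to 72539539), and Podn is on chromosome 4 (107871988 to 107953642), where it overlaps Scp2 on the same strand without shared exon bases.

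The promoters below are the 250 bases before the RefSeq start (GRCm38.p6, 5′ to 3′ on the gene's strand). Fmod and Bgn are shown because they had the 2 largest changes in P635L hearts, and Aspn and Ecm2 because they are neighbours whose profiles across the 16 libraries were the most alike of any pair of the family. They span chr1:134037004-134037253 (Fmod), chrX:73483351-73483600 (Bgn), chr13:49544193-49544442 (Aspn) and chr13:49504560-49504809 (Ecm2), all on the plus strand. Capitals mark a match to any of 6 short motifs, searched on both strands. The letters were TATAAA for the core promoter box of that name, CAGACA for SMAD factors, TGANTCA for AP-1, GGAATG for TEAD factors, TGTGGT for RUNX factors and GGGCGG for SP1.
Fmod: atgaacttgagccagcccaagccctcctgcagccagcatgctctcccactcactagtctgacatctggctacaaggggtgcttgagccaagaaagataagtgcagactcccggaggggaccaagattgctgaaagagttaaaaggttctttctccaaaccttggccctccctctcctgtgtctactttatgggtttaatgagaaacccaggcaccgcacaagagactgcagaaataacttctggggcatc
Bgn: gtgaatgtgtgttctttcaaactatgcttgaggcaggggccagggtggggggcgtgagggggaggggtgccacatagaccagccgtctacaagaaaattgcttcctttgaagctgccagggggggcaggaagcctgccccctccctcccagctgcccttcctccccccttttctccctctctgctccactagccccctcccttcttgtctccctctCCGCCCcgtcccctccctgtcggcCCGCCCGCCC
Aspn: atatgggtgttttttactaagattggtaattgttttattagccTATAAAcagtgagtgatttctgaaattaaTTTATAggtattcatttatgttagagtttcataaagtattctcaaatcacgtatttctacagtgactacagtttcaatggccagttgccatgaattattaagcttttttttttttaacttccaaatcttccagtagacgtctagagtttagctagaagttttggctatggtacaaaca
Ecm2: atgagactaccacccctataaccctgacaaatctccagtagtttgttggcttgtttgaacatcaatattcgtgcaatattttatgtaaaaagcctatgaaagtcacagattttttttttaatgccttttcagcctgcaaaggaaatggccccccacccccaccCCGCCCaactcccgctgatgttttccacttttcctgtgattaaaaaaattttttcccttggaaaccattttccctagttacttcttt
Fmod held none of the 6 motifs in this window. Bgn held 3 SP1 matches, 2 of which overlap, Ecm2 held 1 SP1 match, and Aspn held 2 TATA matches more than 170 bases from the start. Of 32851 RefSeq promoters of this length, 32.7% held the SP1 letters, 12.4% the TATA letters, 17.1% SMAD, 6.75% AP-1, 12.6% TEAD and 14.0% RUNX. The same table gave promoters for Ogn, which held 2 overlapping TATA matches, 1 TEAD and 1 RUNX match, for Podn, which held 2 SP1 matches in 1 of its 2 promoters, and for Prelp and Omd, which held none. The promoters of Aspn and Ecm2 shared no matched motif.

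Library totals ran from 28493249 to 85922669 counts. In 3 libraries (WT Ctr replicates 2 and 4 and WT Tnpo3 replicate 4) a single gene without a symbol, ENSMUSG00000119584, took 20.0% to 22.7% of counts, against at most 5.3% in the others. In 3 libraries, all WT (WT Ctr replicate 4 and WT Tnpo3 replicates 2 and 4), Xist exceeded the Y-linked genes, so sex and genotype were not balanced. Markers of cardiomyocytes were abundant in every library, with a summed level of at least 40700 in normalised counts (CPM), and the atrial genes Myl7, Sln and Bmp10 averaged under 0.5 CPM in every group. The remaining listed atrial gene, Myl4, averaged 4.7 CPM in WT Ctr, 3.02 in WT Tnpo3, 6.82 in P635L Ctr and 4.11 in P635L Tnpo3. Each mouse gave 1 library, so the spread is between mice. In bulk tissue, fewer cells of a type and less RNA per cell cannot be told apart.

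Per kilobase of exon, decorin was the most abundant member in every group (79.4 ± 12.0 CPM per kb in WT Ctr, SD, n = 4), followed by biglycan (47.1 ± 8.18). Lumican, osteoglycin, Prelp, asporin, podocan and Ecm2 came next in WT Ctr, at 26.6 for lumican and 4.35 CPM per kb for Ecm2. In that order the libraries of Dcn, Bgn and Lum did not overlap each other, nor did those of Ogn and Prelp, or of Ecm2 and Omd. Those of Lum and Ogn overlapped, as did those of each neighbouring pair from Prelp to Ecm2. Omd, at 0.413, and Fmod, at 0.19, were the scarcest. The summed level of the 10 genes was 206 CPM per kb in WT Ctr, 224 in WT Tnpo3, 409 in P635L Ctr, and it was 255 in P635L Tnpo3. Decorin and biglycan made up 38.5% and 22.8% of it in WT Ctr and 35.5% and 30.6% in P635L Ctr. Fmod rose in rank from last in WT Ctr to the 7th place in P635L Ctr, at a mean of 7.27 CPM per kb. Its P635L Ctr libraries ran from 2.99 to 10.7 CPM per kb, above all those of Omd but across all those of Ecm2 (6.02 to 8.02) and Podn (5.62 to 8.16), so the order of these 3 genes rests on overlapping libraries.

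**Figure D1:**
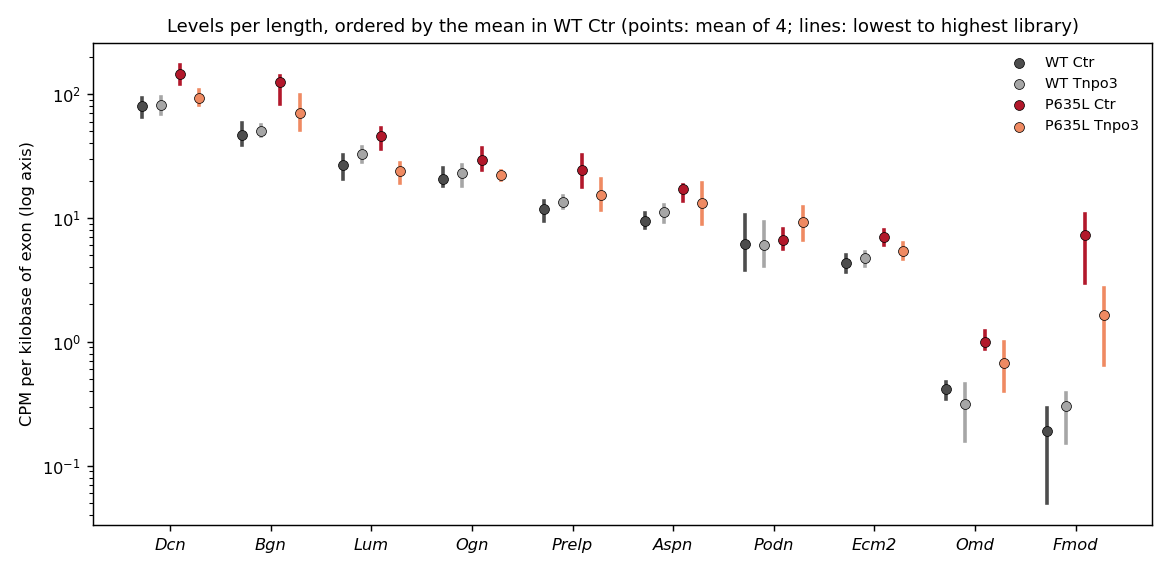
Levels of the 10 genes as CPM per kilobase of exon on a log axis, ordered by their mean in WT Ctr. Points are means of 4 libraries and lines run from the lowest to the highest library. Fmod is the scarcest gene in WT Ctr at 0.19 and reaches 7.27 in P635L Ctr.

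Fibromodulin, which binds fibrillar collagen and takes part in its cross-linking, was barely detected in WT hearts. It was higher in P635L Ctr hearts, where it made up 1.78% of the family's summed level per kilobase. It was at 0.687, 0.165, 0.959 and 0.695 CPM in WT Ctr replicates 1 to 4, from 4 to 35 counts. WT Tnpo3 libraries had 1.03, 0.504, 1.29 and 1.19 CPM. P635L Ctr libraries had 19.4, 35.5, 9.88 and 31.3 CPM. All 4 lay above every WT library, with replicate 3 the lowest. P635L Tnpo3 libraries had 2.44, 8.08, 2.16 and 9.03 CPM, below every P635L Ctr library and above every WT library, and they fell into a lower pair (replicates 1 and 3) and a higher pair (replicates 2 and 4). The log2 fold change was 5.21 (SE 0.622, 36.9-fold) for P635L Ctr against WT Ctr, -2.14 (SE 0.508, 4.42-fold lower) for P635L Tnpo3 against P635L Ctr, and 3.06 (SE 0.596, 8.36-fold) for P635L Tnpo3 against WT Ctr. These comparisons share libraries and chose the gene. The difference between P635L Tnpo3 and WT Tnpo3 was 2.45 (SE 0.562), and since it uses the P635L Tnpo3 libraries on which Fmod was also chosen, it too is a description. Between the WT groups it was 0.62 (95% interval -0.78 to 2.01).

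**Figure D2:**
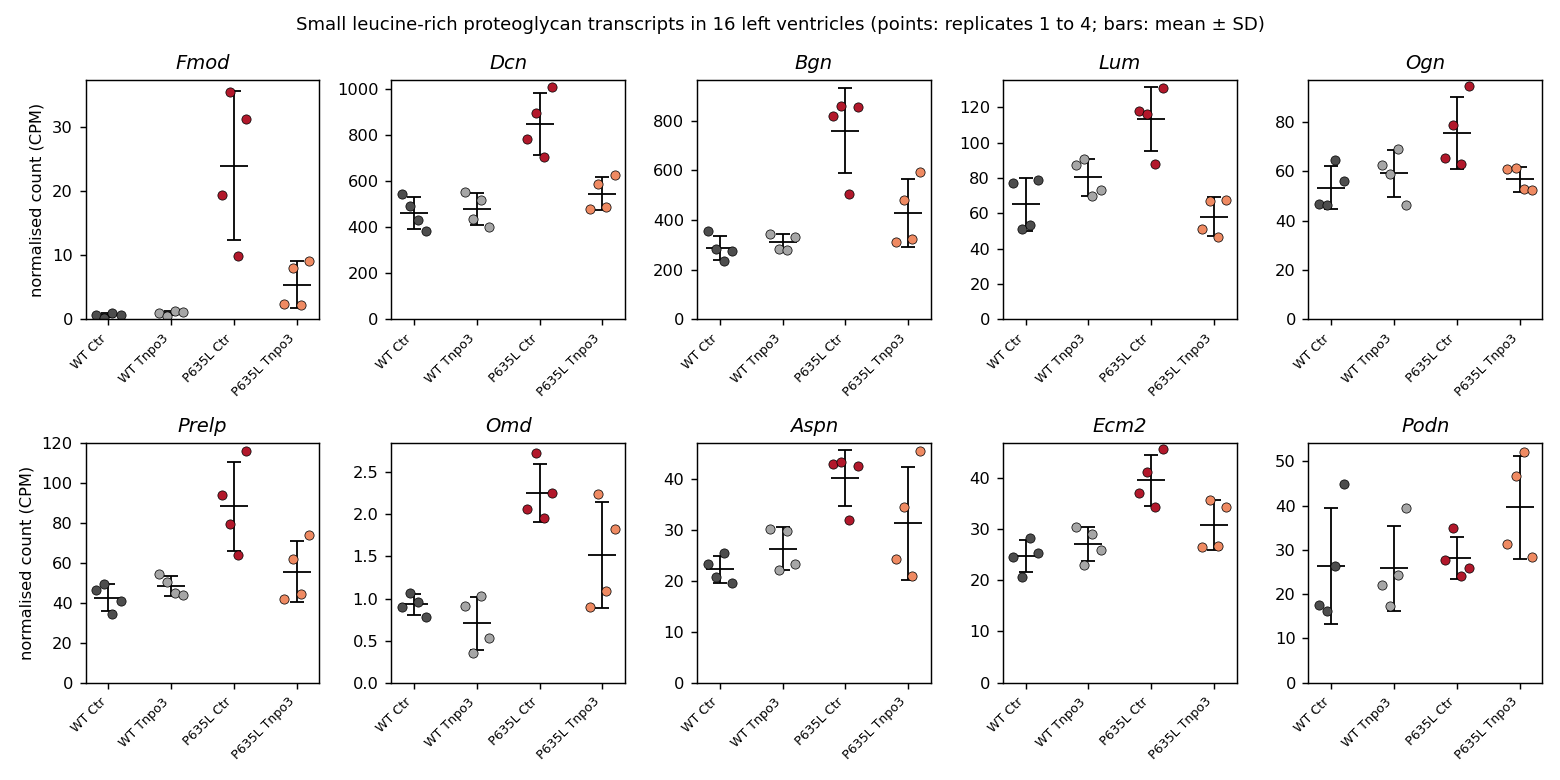
Normalised counts (CPM, linear axes from 0) of each of the 10 genes in the 16 libraries. Points are replicates 1 to 4 from left to right within a group, bars are mean ± SD. P635L Ctr replicate 3 is the lowest of its group in all 10 panels, and Fmod in P635L Tnpo3 lies between the WT and P635L Ctr libraries.

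With the Ctr virus, 8 of the other 9 genes were also higher in P635L than in WT hearts. With Fmod that made 9 of 10 at an adjusted p under 0.05 (edgeR's quasi-likelihood test, Benjamini-Hochberg over all 18662 genes), where 14.2% of all genes passed in either direction and 7.07% were higher. The median log2 fold change of the 10 was 0.86, against -0.05 over all genes. In 8 of 10 the P635L Ctr libraries all lay above the WT Ctr libraries, as they did for 9.71% of all genes. Because Fmod was chosen on this comparison, nothing is read from these counts beyond the description.

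Biglycan, which binds collagen and can activate Toll-like receptors once released, changed most among the relatives. It was at 355, 282, 235 and 276 CPM in WT Ctr replicates 1 to 4 and at 817, 861, 505 and 855 CPM in P635L Ctr. The groups did not overlap, and P635L Ctr replicate 3 stood well below the other three. The log2 fold change was 1.40 (SE 0.207, adjusted p 0.000155). Bgn is X-linked, and the WT libraries with high Xist had 276, 285 and 330 CPM, within the 235 to 355 CPM of the other WT libraries.

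Decorin, which limits the sideways growth of collagen fibrils and binds transforming growth factor beta, was at 546, 491, 432 and 385 CPM in WT Ctr. In P635L Ctr it was at 783, 896, 706 and 1010 CPM. Every P635L Ctr library lay above every WT Ctr library, and the log2 fold change was 0.87 (SE 0.149, adjusted p 0.000569). Prelp, which anchors basement membranes to connective tissue, rose from 46.2, 49.3, 34.3 and 40.7 CPM to 94.0, 79.4, 63.9 and 116 CPM. Its log2 fold change was 1.05 (SE 0.191, adjusted p 0.00104), again without overlap. Prelp shares 350 exon bases with Gm15851 on the other strand, and Gm15851 had at most 14 counts in a library. Whether strand was used in counting is not given, so this low count does not settle what the overlap did to Prelp.

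Lumican, a keratan sulfate proteoglycan that spaces fibrils, was at 76.9, 51.0, 53.5 and 78.9 CPM in WT Ctr and at 118, 116, 88.0 and 131 CPM in P635L Ctr. The log2 fold change was 0.80 (SE 0.17, adjusted p 0.00369). Of the chromosome 13 cluster, osteomodulin rose by 1.28 (SE 0.337, adjusted p 0.0149) from a low level of 0.782 to 1.07 CPM to 1.96 to 2.73 CPM. Asporin, which binds collagen and restrains transforming growth factor beta, rose by 0.85 (adjusted p 0.00676) from 19.5 to 25.5 CPM to 31.9 to 43.2 CPM. Ecm2 rose by 0.68 (adjusted p 0.00221) from 20.6 to 28.3 CPM to 34.2 to 45.5 CPM. Osteoglycin rose by 0.50 (SE 0.15, adjusted p 0.0319) with overlapping groups, 46.4 to 64.6 against 62.8 to 94.7 CPM.

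The calls of Ogn, Omd and Aspn were the least firm. Without the 3 libraries rich in ENSMUSG00000119584 their adjusted p was 0.0798, 0.0616 and 0.0855, leaving 6 of 10 genes called. The chosen Fmod is among the 6, and that fit called 2320 of 19532 genes. The adjusted p over all alternatives ran from 0.0124 to 0.129 for Ogn, from 0.00204 to 0.0616 for Omd and from 0.000475 to 0.0855 for Aspn. Ogn lost its call in 7 of 16 alternatives, among them without WT Ctr replicate 1 or 2 or P635L Ctr replicate 2 or 4, and when only the 2 groups compared were fitted (adjusted p 0.0507). Omd also lost it without P635L Ctr replicate 2. Podocan did not pass in any setting. It was at 17.6, 16.3, 26.4 and 44.8 CPM in WT Ctr and at 27.8, 34.9, 24.0 and 25.9 CPM in P635L Ctr, with WT Ctr replicate 4 above every P635L Ctr library. The difference was 0.10 (95% interval -0.58 to 0.78).

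**Figure D3:**
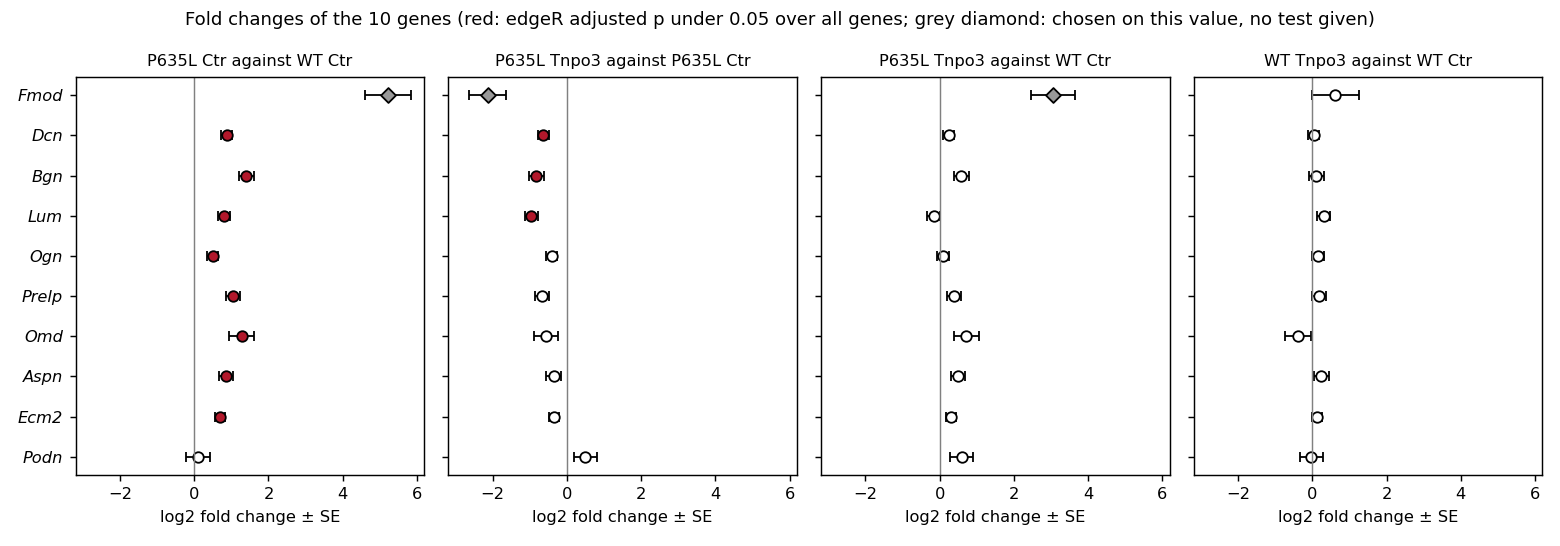
Log2 fold changes with their standard errors for the 10 genes in 4 comparisons, on a shared axis. Red points passed the edgeR test over all genes, open points did not, and grey diamonds mark Fmod where it was chosen on the value. The 8 red points of the first panel lie between 0.50 and 1.40, and the last panel has none.

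In P635L hearts the Tnpo3 virus went with lower levels of part of the family. Lumican, biglycan and decorin fell, Fmod was lower as described, and the other six did not pass the test. That is 4 of 10 genes called, all lower, where 3.88% of all genes passed and 2.25% were lower. Fmod was chosen on this comparison too. The count of 4 depended on single libraries: it was 1 without P635L Ctr replicate 2 or 4 or P635L Tnpo3 replicate 1 or 3, and 2 without P635L Ctr replicate 1 or P635L Tnpo3 replicate 2. Those fits called 282 to 395 of all genes, where the main fit called 724. In 4 of 10 genes (Fmod, Dcn, Lum and Ogn) the P635L Tnpo3 libraries all lay below the P635L Ctr libraries, as for 11.0% of all genes. The median log2 fold change of the 10 was -0.60, against 0.01 over all genes.

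Lumican in P635L Tnpo3 was at 51.0, 67.1, 46.8 and 67.6 CPM, below every P635L Ctr library and overlapping the WT Ctr libraries. It fell by 0.96 on the log2 scale (SE 0.171, adjusted p 0.00386), and this call held in all 16 alternatives, with an adjusted p of at most 0.023. Decorin was at 480, 589, 488 and 626 CPM and fell by 0.64 (SE 0.149, adjusted p 0.0218). Its groups did not overlap, but the call was lost without P635L Ctr replicate 2 or 4 or P635L Tnpo3 replicate 1 or 3, with an adjusted p from 0.00129 to 0.0964 over the alternatives. Biglycan was at 313, 482, 323 and 595 CPM and fell by 0.83 (SE 0.205, adjusted p 0.0295). Its P635L Tnpo3 replicate 4 overlapped P635L Ctr replicate 3, and the call was lost in 8 of 16 alternatives, among them without P635L Ctr replicate 1, 2 or 4 or P635L Tnpo3 replicate 1, 2 or 3 (adjusted p from 0.00284 to 0.115).

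Of the genes that did not pass, Prelp differed by -0.67 (95% interval -1.08 to -0.25, adjusted p 0.0568), with P635L Tnpo3 libraries at 42.0, 61.9, 44.4 and 74.1 CPM. Prelp passed in 4 of 16 alternatives, among them DESeq2 (adjusted p 0.0162) and the fits without P635L Ctr replicate 3 (0.0284) or P635L Tnpo3 replicate 4 (0.0207). Osteoglycin differed by -0.41 (-0.74 to -0.08, adjusted p 0.144) although its groups did not overlap, at 52.3 to 61.2 against 62.8 to 94.7 CPM. It passed in 1 of 16 alternatives, when only the 2 groups compared were fitted (adjusted p 0.0362). Ecm2 and Aspn each differed by -0.36 and Omd by -0.57. Podocan was the only member with a positive difference, 0.49 (-0.18 to 1.17).

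Against WT Ctr, no relative of Fmod passed the test in P635L Tnpo3 hearts. The count of 1 in 10 is Fmod, which was chosen on this comparison, so nothing is read from it beside the 3.07% of all genes that passed. Without the 3 libraries rich in ENSMUSG00000119584 the count was 0. Without the 3 libraries with high Xist it was again 1, but through another gene. Podocan passed (1.01, adjusted p 0.0337), and the chosen Fmod, at 3.13, was no longer counted. The differences of the other nine ran from -0.16 for Lum to 0.71 for Omd. Biglycan, at 0.58, had a 95% interval of 0.13 to 1.02 (adjusted p 0.138), so a difference remains possible. By unadjusted p, 5 of the 10 were under 0.05, the chosen Fmod among them, as were 3416 of all 18662 genes. This comparison shares libraries with the preceding ones. Against WT Tnpo3 no relative of Fmod passed either. Fmod is the 1 of 10 counted, beside 3.72% of all genes, and because the P635L Tnpo3 libraries helped to choose it, this is a description and no test. The count was 0 without WT Tnpo3 replicate 1 or 2 or P635L Tnpo3 replicate 2 or 4. Osteomodulin differed by 1.10 (SE 0.341, adjusted p 0.0771). It passed without WT Tnpo3 replicate 3 (1.35, adjusted p 0.0382), which made the count 2, and by DESeq2 (adjusted p 0.0256). Podocan passed without the 3 libraries rich in ENSMUSG00000119584 (0.90, adjusted p 0.029). Lumican differed by -0.47 (adjusted p 0.131), with every P635L Tnpo3 library below every WT Tnpo3 library (87.4, 90.9, 69.8 and 73.2 CPM), as for 5.7% of all genes.

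In WT hearts the virus made no detectable difference to any member. By edgeR 0 of 10 were called, 0 of 10 had an unadjusted p under 0.05, and DESeq2 also called 0. Over all genes 1 was called (0.00536%) and 597 had an unadjusted p under 0.05. All 10 genes overlapped between the groups. The differences ran from -0.39 for Omd to 0.62 for Fmod, and for decorin the 95% interval was -0.28 to 0.37.

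Whether the effect of the virus differed between genotypes was tested as an interaction, which 0.504% of all genes passed. Lumican was the only member called by edgeR, with a difference of effects of -1.26 (SE 0.241, adjusted p 0.0188). The virus went with a change of -0.96 in P635L hearts and 0.30 in WT hearts. The call was lost without WT Ctr replicate 3, P635L Ctr replicate 4 or P635L Tnpo3 replicate 1 or 3, and without the 3 libraries with high Xist, with an adjusted p from 0.000147 to 0.0592. DESeq2 called lumican and also decorin (-0.70, adjusted p 0.0459), biglycan (-0.95, adjusted p 0.0497) and the chosen Fmod (-2.82). It called 410 of all genes, where edgeR called 94. By edgeR the interaction value was negative in 9 of 10 genes, the chosen Fmod among them (Podn 0.52), where 53.6% of all genes had a positive one. Its median was -0.64 against 0.04 over all genes.

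The libraries of each P635L group shared part of their order in most members. P635L Ctr replicate 3 was the lowest of its group in all 10 genes, as it was in 27.2% of all genes tested. P635L Tnpo3 replicates 2 and 4 both exceeded replicates 1 and 3 in 8 of 10 (all but Ogn and Podn), an order that 18.9% of all genes showed. In the WT groups no library was the highest or the lowest of its group in more than 5 of the 10 genes. By this measure P635L Tnpo3 was close to them, with replicate 4 highest in 6 genes and replicate 1 lowest in 5. The order by pairs was not examined in the other groups. The Tnpo3 transcript in the 4 P635L Tnpo3 libraries was at 359, 723, 543 and 234 CPM, so that replicate 2 had the most and replicate 4 the least. The profiles of Aspn and Ecm2, of Dcn and Prelp and of Ogn and Ecm2 were the closest, with a root mean square difference of 0.18, 0.184 and 0.19 in centred log2 CPM over 16 libraries. Fmod differed from its relatives by 1.26 (Bgn) to 1.74 (Podn). The measure is not scaled for the size of a change, and Fmod was chosen for large changes in these libraries. Its distance therefore follows from the choice and is a description only.

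Among 12972 genes, those nearest to Fmod by this measure were the unnamed transcript Gm13054 (0.443), Ltbp2 (0.602), a binding protein of latent transforming growth factor beta, Comp (0.603), a cartilage and tendon matrix protein, Cilp (0.657) and Thbs4 (0.668), a thrombospondin. The median over all genes was 1.84. Cilp averaged 12.6 CPM in WT Ctr, 117 in P635L Ctr, and 44.0 with P635L Tnpo3, and Gm13054 0.545, 14.4 and 3.28. The points share libraries and depth, and no test was made. Because Fmod was chosen for its large changes here, genes near it by this measure also change strongly. The list therefore restates that choice.

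Part of the fibroblast markers moved with the family. Of 8 listed markers 4 rose in P635L Ctr against WT Ctr (Pdgfra by 1.06, Tcf21, Pi16 and Mfap5) and Scara5 fell by 1.01. Dpep1 (0.75), Dpt (-0.08) and Ddr2 (-0.10) did not pass. Of all genes 14.2% passed in this comparison and 7.07% were higher. In P635L Tnpo3 against P635L Ctr 1 of the 8 passed, Pdgfra, which fell by 0.92, beside 3.88% of all genes. None of the 8 averaged under 0.5 CPM in any group. Their sum was 350 to 523 CPM in WT Ctr, 383 to 453 in WT Tnpo3, 583 to 749 in P635L Ctr, and 434 to 621 with the Tnpo3 virus in P635L. It was lowest in P635L Ctr replicate 3, and higher in P635L Tnpo3 replicates 2 and 4 (604 and 621) than in 1 and 3 (469 and 434). Expressed per 100 CPM of that sum, Fmod was 0.152 ± 0.0915 in WT Ctr and 3.38 ± 1.44 in P635L Ctr (SD, n = 4), 22.2 times higher, which describes the chosen gene. On this scale the ratio of P635L Ctr to WT Ctr was 1.65 for Bgn and 1.52 for Omd, both without overlap, and from 0.622 (Podn) to 1.29 (Prelp) for the other seven, all with overlap. Of all genes on this scale 1.7% were higher without overlap. For P635L Tnpo3 against P635L Ctr, Lum (0.669) and the chosen Fmod (0.282) were the members without overlap, as 1.02% of all genes were in this direction. How far the markers and the members share a cause was not tested.

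Markers of other cell types also differed between the groups. The summed level of 6 cardiomyocyte markers was 57100 to 67300 CPM in WT Ctr, 44700 to 66200 in WT Tnpo3, 41200 to 44900 in P635L Ctr, and 40700 to 50400 in P635L Tnpo3. The P635L Ctr libraries were thus all below the WT Ctr libraries. In that comparison 0 of the 6 had a positive difference and 2 fell, Myh6 by 0.64 and Tnni3 by 0.81, while none passed between P635L Tnpo3 and P635L Ctr. Of all genes 14.2% and 3.88% passed in these 2 comparisons. The sum of 6 macrophage markers was 282 to 896 CPM in WT Ctr, 376 to 482 in WT Tnpo3, 261 to 378 in P635L Ctr, and 410 to 686 in P635L Tnpo3, whose libraries were all above those of P635L Ctr. In P635L Ctr against WT Ctr 0 of these 6 were positive and Cd68 fell by 0.88. In P635L Tnpo3 against P635L Ctr 6 of 6 were positive, with a median of 0.63, and none passed. Of the epicardial markers Wt1 fell by 0.56 in P635L Ctr, and Msln, under 0.6 CPM on average in every group, rose with the Tnpo3 virus in P635L (adjusted p 0.00978). No marker of endothelium, mural cells, lymphocytes, adipocytes or Schwann cells passed in these 2 comparisons. The part of these markers in the members' values was not tested.

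Markers of tendon, valve and cartilage, tissues rich in fibromodulin, were also measured. Of the 5 tested of 6 listed, Scx, Tnmd and Sox9 rose in P635L Ctr, Scx by 1.73 from 7.12 to 23.5 CPM. Of all genes 7.07% were higher in that comparison. Acan, Chad and Mkx averaged under 0.5 CPM in every group. Tnmd did so in every group but P635L Ctr, where it averaged 1.1 CPM (SD 0.887), against 0.00685 CPM in WT Ctr. The summed level was 8.52 to 16.0 CPM in WT Ctr, 9.61 to 11.3 in WT Tnpo3, 26.9 to 45.9 in P635L Ctr, and P635L Tnpo3 had 15.2 to 33.4. Their part in the Fmod values was not tested.

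The wider pathway was read from 9 lists, with up to 2 genes named by smallest p and others named after their values were seen where a count is 5 or fewer. All counts are for P635L Ctr against WT Ctr unless stated. In that comparison 14.2% of all genes passed in either direction and 7.07% were higher. In P635L Tnpo3 against P635L Ctr 3.88% passed and 2.25% were lower. The list counts stand beside these shares and were not tested against them. Of the other SLRP genes, Kera, Epyc and Optc had too few counts to test, and of the 6 tested Chadl (0.83) and Tsku (0.68) rose. None of them passed in any other comparison. Of 12 genes for fibrillar, fibril-associated and type VI collagens, 6 rose, led by Col12a1 (3.07, SE 0.46) and Col1a2 (1.05), and none fell. In P635L Tnpo3 against P635L Ctr 4 of them fell, Col1a1, Col1a2, Col12a1 and Col6a2, by 0.62 to 1.88. Of 8 cross-linking enzymes 4 rose, Loxl3 (1.19), Plod2 (0.75), Lox and Loxl1.

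The enzymes that build the sugar chains were counted apart. Of 21 tested genes for the linker and for chondroitin or dermatan sulfate, 3 rose, Dsel (0.86), an epimerase that makes dermatan sulfate, Csgalnact2 (0.70) and Chpf (0.64), with a list median of 0.17. Since 7.07% of all genes were higher, no response of the pathway is read from 3 of 21. Csgalnact2 and Chpf each fell by 0.54 in P635L Tnpo3 against P635L Ctr. None of the 4 tested keratan sulfate enzymes passed in any comparison, with a median of -0.16. These lists were not tested against each other or against other genes.

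Of 17 ligands, receptors and processing enzymes 8 rose and 1 fell (Tll2). The smallest p values belonged to Pcolce (1.44, SE 0.133), an enhancer of procollagen processing, and to Tlr4 (1.64, SE 0.168), a receptor of soluble biglycan. Tlr4 averaged 5.08 CPM in WT Ctr, 5.27 in WT Tnpo3, 15.8 in P635L Ctr but 6.37 in P635L Tnpo3, and fell by 1.31 in P635L Tnpo3 against P635L Ctr (adjusted p 0.0002). Pcolce averaged 88.0, 96.1, 239 and 155 CPM in the same order, and it was still 0.81 higher in P635L Tnpo3 than in WT Ctr (adjusted p 0.00164).

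Of 11 tested proteases that cut matrix proteoglycans, Mmp2 rose (1.06) and Adamts9 fell (-0.58). As 14.2% of all genes passed in either direction, nothing is read from this count. Of 15 other proteoglycans, Sdc2 (0.81), Prg4 (0.77), Vcan (1.11) and Sdc1 (0.45) rose and Sdc4 fell (-0.68). Of 11 activated fibroblast genes 6 rose, with the smallest p for Ltbp2 (4.17) and Ccn2 (2.76), and the list median was 1.59. Comp (3.41) and Thbs4 (3.25) differed by more than Ccn2. Ltbp2, Comp and Thbs4 are also among the genes nearest to the chosen Fmod. The lists were chosen with earlier results of these data known, so their medians are a description and are not ranked. The difference was positive in 9 of the 11. Acta2 averaged 104 CPM in WT Ctr and 86.3 in P635L Ctr, and Tnc 4.28 (SD 6.25) and 1.76 CPM, and neither passed. None of the list's genes passed in P635L Tnpo3 against P635L Ctr, where the median was -0.44.

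**Figure D4:**
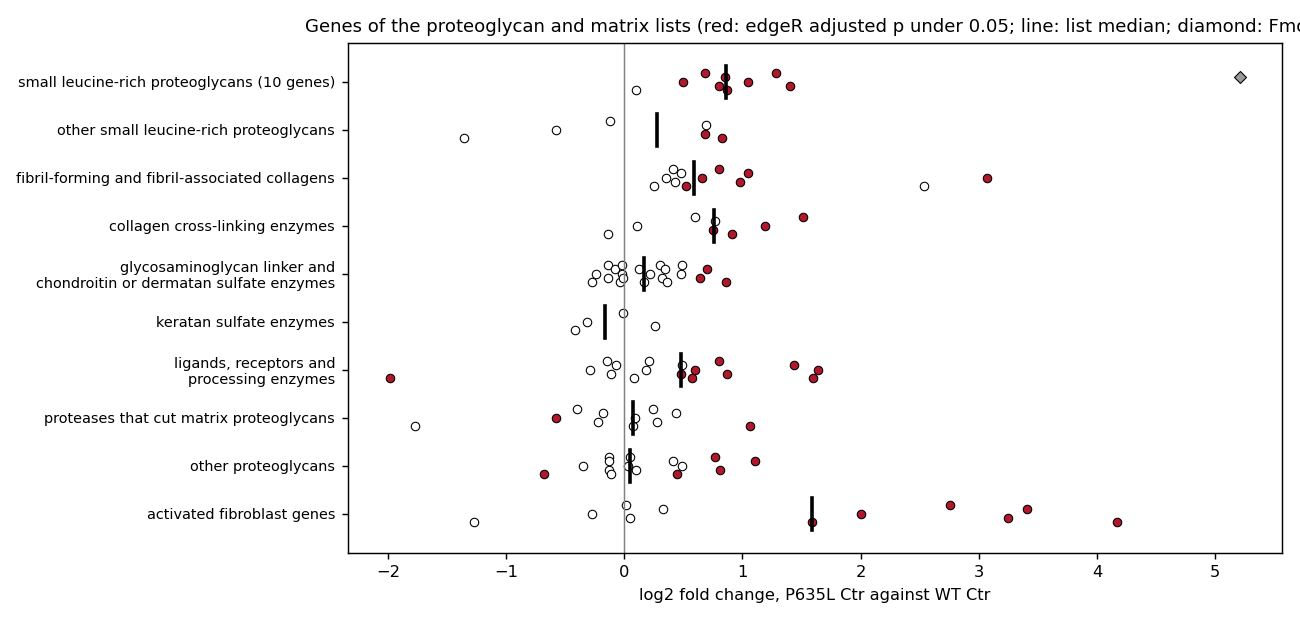
Log2 fold changes of P635L Ctr against WT Ctr for the 10 genes and for 9 lists of related genes. Each point is a gene, red where the edgeR adjusted p was under 0.05, the diamond is Fmod and the vertical bar is the list's median. The median is 0.86 for the 10 SLRPs, the chosen Fmod among them, and 0.59 for collagens, type VI included. It is -0.16 for keratan sulfate enzymes and 1.59 for activated fibroblast genes. The lists were chosen with earlier results known, and their medians were not compared by a test.

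RBM20 is a splicing factor, and the authors' deposited rMATS tables list splice events with inclusion levels from 0 to 1. The tables name libraries by position only. No event was listed for Fmod or Lum. Of 22 member events in P635L Ctr against WT Ctr 3 had a false discovery rate (FDR) under 0.05, against 5.84% of all events. The counts were 2 of 20 in P635L Tnpo3 against WT Ctr (4.72% of all) and 0 of 19 in WT Tnpo3 against WT Ctr (2.1%). These 3 tables share the WT Ctr libraries.

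An intron of Ecm2 (chromosome 13, 49671967 to 49674047, GRCm39) had an inclusion level of 0.407, 0.323, 0.533 and 0.625 at the 4 P635L Tnpo3 positions. The WT Ctr positions had 0.111, 0.111, 0.483 and 0.175, so the groups overlapped through 1 WT Ctr library, and the deposited FDR was 0.0285. P635L Ctr positions had 0.327, 0.233, 0.131 and 0.202 and WT Tnpo3 positions 0.267, 0.188, 0.222 and 0.333. The means were 0.22 in WT Ctr, 0.253 in WT Tnpo3, 0.223 in P635L Ctr, against 0.472 in P635L Tnpo3. The first and second WT Ctr positions rest on 2 and 3 inclusion reads, the intron lies within Cenpp, and no direct test of P635L Tnpo3 against P635L Ctr was made.

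In Dcn, exon 97345827 to 97345920 on chromosome 10 was listed in a mutually exclusive event with an FDR of 0.0346 for P635L Tnpo3 against WT Ctr. The value of that event does not measure how often the exon is included. The same table also lists this exon as a skipped-exon event, with 3085 to 3966 inclusion reads in WT Ctr libraries, 4358 to 7166 in P635L Tnpo3 libraries and at most 1 skipping read in any of them. Its inclusion level there was 1.0 in both groups, as it was for the exon that follows (97349461 to 97349599). The 3 called events in P635L Ctr rest on few skipping reads. Both events of Aspn, whose exons end at the same base (chromosome 13, 49705392), have skipping reads in 1 library only, 24 in each. The Prelp event (chromosome 1, 133842183 to 133842786) has 6 and 12 in 2 libraries.

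**Figure D5:**
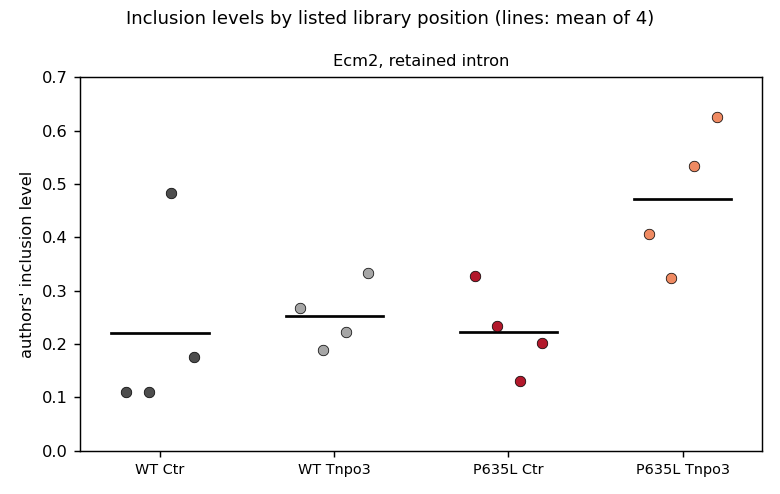
The authors' inclusion levels (axis from 0) for the Ecm2 intron in 4 groups. Points are libraries by listed position and lines are means of 4. The Ecm2 mean is 0.472 in P635L Tnpo3 and 0.22 to 0.253 in the others, with 1 WT Ctr library at 0.483.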

How the data were processed

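RNA of 16 left ventricles was analysed, 4 per group by the labels' genotype and treatment. The authors deposited raw counts per gene, made per the submitters' processing notes with STAR 2.7.9a and featureCounts 2.0.6 on GRCm39. Libraries were poly(A)-selected and stranded per the labels' protocols, and whether strand was used in counting is not given in the sources used here. Counts were fitted in R 4.3.3 with edgeR 4.0.16 (limma 3.58.1): TMM factors, filterByExpr (minimum count 10), 1 mean per group over all 16 libraries with 12 residual degrees of freedom, robust quasi-likelihood F tests, two-sided, adjusted by Benjamini-Hochberg over 18662 genes, with a threshold of 0.05. SE is the log2 fold change over the square root of F, and 95% intervals use it with the t quantile at 12 degrees of freedom. CPM uses TMM library sizes, and CPM per kb divides by exon length. Likeness used log2(CPM + 0.5) centred per gene, among genes with a mean of at least 1. Alternatives were DESeq2 1.42.0, other scalings, filters, thresholds and library sets, and a replicate block.

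The authors' deposited tables also hold log2 fold changes and p-values from DESeq2, which were read with the sign turned to put P635L or Tnpo3 first. In them 9, 1 and 0 of the 10 genes had an adjusted p under 0.05 for P635L Ctr, P635L Tnpo3 and WT Tnpo3 against WT Ctr. The chosen Fmod is among the 9 and is the 1. These values come from the same mice, the share over all genes was not counted in them, and they are no separate evidence. The authors' deposited rMATS tables hold junction read counts, inclusion levels as a fraction and p-values with FDR.

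By the plan the named genes were the 10 members, the 5 genes nearest to Fmod, and from each list at most the 2 called genes with the smallest p in P635L Ctr against WT Ctr. Further list genes were named after their values were seen. Members and lists were chosen with earlier results of these data known, and the values per fibroblast markers were added after seeing the data. Promoters are from RefSeq (GRCm38.p6), matched by symbol for 8 of 10 members, while gene positions are GRCm39.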

Additional observations from a re-analysis of the deposited data

Results flagged for a closer look

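Of 40 sets of 4 libraries (10 genes in 4 groups), 2 had a library far from the others, which is also the number that chance gives at about 1 in 20. In P635L Ctr replicate 3, Bgn was at 505 CPM, with a gap to the nearest library of 0.876 of the group's range, and Aspn was at 31.9 CPM, with a gap of 0.947 of the range. The effect of the Tnpo3 virus on Lum differed between P635L and WT hearts by -1.26 on the log2 scale (edgeR interaction, adjusted p 0.0188).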

How the results depend on the processing

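The counts of members called were 9 (P635L Ctr against WT Ctr), 4 (P635L Tnpo3 against P635L Ctr), 1 (P635L Tnpo3 against WT Ctr), 0 (WT Tnpo3 against WT Ctr), 1 (P635L Tnpo3 against WT Tnpo3) and 1 (interaction), and over 109 alternative counts 84 stayed within 1.5 times. Leaving out 1 library at a time gave 7 to 9, 1 to 5, 1 to 1, 0 to 0, 0 to 2 and 0 to 1. Those fits tested 18979 to 19249 genes. They called 1814 to 2545, 282 to 591, 282 to 687, 1 to 3, 280 to 1220 and 52 to 221 of them. Requiring an absolute log2 fold change of 1 gave 4 and 1 in the first 2, where 1128 and 253 of 18662 genes passed. The chosen Fmod is among the 4 and is the 1. DESeq2 gave 2 against WT Tnpo3 and 4 for the interaction, again with Fmod in both. It called 1425 and 410 of all genes there, where edgeR called 694 and 94. Without the low-count filter the count against WT Tnpo3 was 0, where 618 of 37012 genes passed. Without the 3 libraries rich in ENSMUSG00000119584, P635L Tnpo3 gave 0 against WT Ctr and 2 against WT Tnpo3. There 319 and 1887 of 19532 genes passed. Without the 3 libraries with high Xist, the counts were 0 against WT Tnpo3 and 0 for the interaction. There 386 and 54 of 19434 genes passed. Replicate numbers share only a number: 6 of 24 same-numbered pairs had deviations correlated over 0.1 (range -0.26 to 0.55), and the replicate block gave 8, 5, 1, 0, 0 and 1. Of all 18662 genes the block called 2487, 677, 490, 1, 547 and 113. With the block the adjusted p was 0.0525 for Ogn in P635L Ctr against WT Ctr and 0.0351 for Prelp in P635L Tnpo3 against P635L Ctr, each on the other side of the threshold. The chosen Fmod, at 2.24, was no longer counted against WT Tnpo3, and no other call changed. The cause of these shifts was not tested, and smaller sets hold fewer samples.

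Of 1030 alternative fold changes 12 changed sign, all of genes that did not pass. Leaving out 1 library at a time gave -0.05 to 0.48 for Podn in P635L Ctr against WT Ctr, -0.31 to 0.36 for Podn and -0.04 to 0.13 for Dcn in WT Tnpo3 against WT Ctr, -0.16 to 0.02 for Ogn in P635L Tnpo3 against WT Tnpo3, and -0.44 to 0.06 for Omd in the interaction. Without the high-Xist libraries, Podn and Omd in WT Tnpo3 against WT Ctr were 0.23 and 0.02. Upper-quartile scaling moved the share of higher genes among those called in P635L Tnpo3 against WT Ctr from 48.5% to 58.7%. At the depth of WT libraries, Fmod rests on 4 to 46 counts, so its fold changes against WT groups are imprecise.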

Other observations

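Podocan was highest in replicate 4 of both WT groups, with 44.8 CPM (WT Ctr) and 39.5 CPM (WT Tnpo3) against 16.3 to 26.4 CPM in the other 6 WT libraries. These 2 libraries are among the 3 rich in ENSMUSG00000119584 and among the 3 with high Xist. WT Ctr replicate 2, rich in the former only, was at 16.3 CPM, and WT Tnpo3 replicate 2, high in Xist only, at 17.4 CPM. P635L libraries ran from 24.0 to 52.2 CPM without either feature.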
